A study of Homo sapiens with 12 samples.

Results

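MG63 cells exposed to anticarin-beta were compared with cells given vehicle, gene by gene across the transcriptome. The comparison takes 6 of the 12 RNA-seq libraries of the series, chosen by the agent named in their labels. MG63 is an established human osteosarcoma line of fibroblast-like, bone-derived tumour cells. The series set a compound experiment beside a knockdown of CCT4, a subunit of the cytosolic chaperonin, with the stated purpose of finding genes that respond to anticarin-beta. The 3 treated libraries came from cells kept with 1 µM anticarin-beta for 18 h, and the 3 vehicle libraries from cells kept without the compound for the same 18 h. The remaining libraries, 3 from cells given a control siRNA and 3 from cells given a CCT4 siRNA for 2 days, enter the estimate of the spread between replicates, and the control siRNA libraries also give the levels by which genes are classed below. All cells belonged to the same unmodified line and were grown in the same serum-containing medium. A single concentration and a single time were sampled, and nothing in the labels says whether the 3 libraries of a group were grown as separate cultures. The p-values therefore cover no more than the spread from library to library, which may be technical.

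Several systems that are followed below have well known wiring. Stressed mesenchymal cells secrete cytokines, chemokines and growth factors, which act on neighbouring cells through dedicated receptors, and matrix-responsive programmes such as the YAP and TEAD axis read tension and cell contact. Lysosomes break down proteins and lipids with acid hydrolases that depend on a proton pump, and their genes can be switched on together by transcription factors of the TFEB family, which bind a short palindrome in promoters. Proliferating cells keep DNA repair, nucleotide synthesis and replication genes high, many of them under E2F control.

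The vehicle libraries held 15556541 to 17492095 counts and the treated libraries 13393750 to 14885098. The 1000 most abundant genes took 51.6 to 53.6% of the counts with vehicle and 58.2 to 58.4% with the compound, and the TMM factors, which correct for such shifts in composition, were 1.07 to 1.10 and 0.804 to 0.810. Within the vehicle group replicate 1 stood apart: its disagreement with replicates 2 and 3, as chi-square per degree of freedom over genes, was 24.8 and 26.5, against 13.5 between those replicates and 8.65 to 9.20 among the treated libraries. Levels are given as CPM, the counts of a gene scaled to a fixed library size, after TMM scaling and are not divided by gene length, so they compare libraries and not genes. Where a group is given as a pair of values joined by a dash, these are its lowest and highest library.

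The markers of the line were read first. Over 18 osteoblast and mesenchymal markers the summed level, on the TMM scale, was 11346.8 to 14549 CPM with vehicle and 17567 to 18399.9 CPM with anticarin-beta. SPARC, a collagen-binding matrix protein, was at 1670.4, 2469 and 2329.8 CPM with vehicle and 4543, 4547 and 4481 with the compound (log2 fold change 1.07 ± 0.11 SE). The mature-osteoblast markers SP7, IBSP and SPP1, with DLX5 and POSTN, stayed below 1 CPM in all 6 libraries. BGLAP, the late osteoblast marker osteocalcin, was at 0.533, 0.603 and 0.642 CPM with vehicle and 1.93, 1.39 and 2.26 CPM with the compound (log2 fold change 1.64 ± 0.30 SE, edgeR adjusted p = 2.77e-04), and it shares an exon with another gene on its strand. Of 13 such markers tested, 8 were called higher and 2 lower, and with library totals alone in place of TMM 5 were higher and 4 lower. Their median log2 fold change went from 0.26 to -0.16, so a rise of these markers as a set depends on the scaling. Without treated replicate 1 the count called higher was 5. The cadherin gene CDH11 fell from 44.2, 34.9 and 36.6 to 13, 16.8 and 14.9 CPM. RUNX2, the master regulator of that lineage, was at 7.46, 4.28 and 2.25 CPM with vehicle and 33.8, 10.4 and 10.1 CPM with the compound (log2 fold change 1.96 ± 0.56 SE, edgeR adjusted p = 0.00728), and treated replicate 1 was far above the others; without it the call was lost.

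Markers of other cell types were scarce in comparison. The 13 epithelial markers summed to 141 to 168 CPM with vehicle and 150.2 to 173 with the compound. Most of that sum came from the keratins KRT18 and KRT8. Of 7 epithelial markers tested, 4 were called lower, all by over 2-fold, and 1 higher, with a median log2 fold change of -1.05. The higher one, KRT18, had a log2 fold change of 0.28 that became -0.14 with library totals alone, and its call was lost without vehicle replicate 1 or 3 or treated replicate 2 or 3. EPCAM, CDH1, CLDN4, CLDN7, ESRP1 and GRHL2 were below 1 CPM in every library. The 11 blood markers summed to 22.0 to 31.7 and 35.3 to 44.6 CPM, with no count of CD3E or HBB. The 7 muscle markers summed to 7.03 to 11.4 and 6.79 to 8.53 CPM, with no count of TNNT2. The 8 nerve markers summed to 153 to 186 and 54.8 to 179.9 CPM, nearly all of it from TUBB3, whose treated values of 119, 172 and 48.2 CPM disagreed. The 9 endothelial markers summed to 31.2 to 33.4 CPM with vehicle and 9.70 to 11.1 CPM with the compound, where ERG, an ETS transcription factor, fell from 13.6, 14.5 and 14.3 to 2.18, 2.03 and 1.42 CPM. Of 6 endothelial markers tested, 3 were called lower and 2 higher, or 4 and 1 with library totals alone. The count called higher was also 1 without vehicle replicate 1 or 2, any treated replicate or CCT4 siRNA replicate 3. VWF, KDR, TIE1 and TEK were below 1 CPM throughout.

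Anticarin-beta moved most of the transcriptome. Of 17717 genes with enough counts, out of 50868 in the table, edgeR's quasi-likelihood test called 12926 (73.0%) at an adjusted p under 0.05, 6186 higher (34.9%) and 6740 lower (38.0%). A change of over 2-fold was called for 8101 genes (45.7%), 3700 of them higher (20.9%) and 4401 lower (24.8%). For 12526 genes (70.7%) the call came with no overlap between the 3 and 3 values, so a call or a clean separation is the usual state of a gene in this comparison. The quartiles of all log2 fold changes were -1.04 and 0.83, the 10th and 90th percentiles -2.12 and 1.83, and the median -0.06. In bulk libraries fewer cells of a kind and less RNA per cell cannot be told apart, and no count here says whether total RNA per cell stayed the same.

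The scale matters for small changes. With library totals alone the median over all genes was -0.48, with upper-quartile scaling -0.18, and 4292 genes (24.2%) were called higher and 8959 (50.6%) lower with library totals alone. Changes below are relative to the TMM scale, and gene groups whose balance turns on library totals alone are marked as such. In 14 of the 53 pathway lists the shares called higher and lower both lay within 10 percentage points of the 34.9% and 38.0% over all genes, so their counts are not results about those lists. They are the lists of BMP, MYC and MAX, interferon-stimulated, tRNA synthetase, polymerase I and III, mediator, core spliceosome, RNA methyltransferase, mitochondrial import, mitochondrial transcription, G1, kinesin, vesicle coat and potassium channel genes. Genes that share exon sequence with another gene on the same strand, 17.1% of those tested, have counts that the authors' counting could split, and 38.8% overlap an exon on the opposite strand. Among the genes named here, BGLAP, BRCA1, CDH11, CLCF1, CSRP2BP, FGF5, IFIT2, JAG2, MXD3, MXD4, PER1, PFKFB4, RAD51D, SAMM50, SRXN1, TGFB2 and TUBB3 share exons in this way, and their values are uncertain to that extent.

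The balance of the calls differed between classes of abundance. Protein-coding genes were placed in sixths by their mean level in the control siRNA libraries, which are not part of the comparison. In the lowest sixth, from 0 to 2.79 CPM, 33.1% were called higher and 29.3% lower, and the median log2 fold change was 0.04. The filter on counts used all 4 groups, so genes near 0 in the control siRNA libraries were tested only through counts in other groups. Calls in this class depend in part on that selection, and its shares cannot be set against those of the other classes. In the second sixth, from 2.79 to 10.8 CPM, 23.4% were called higher and 50.4% lower, at a median log2 fold change of -0.57. In the top sixth, above 86.5 CPM, the balance turned: 52.4% were called higher and 29.0% lower, with a median of 0.29. Gene length showed a smaller gradient in the same sense. Among the longest sixth, with genes over 115892 bp, 43.0% were called higher and 34.3% lower, against 32.7% and 42.2% in the shortest.

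**Figure D1:**
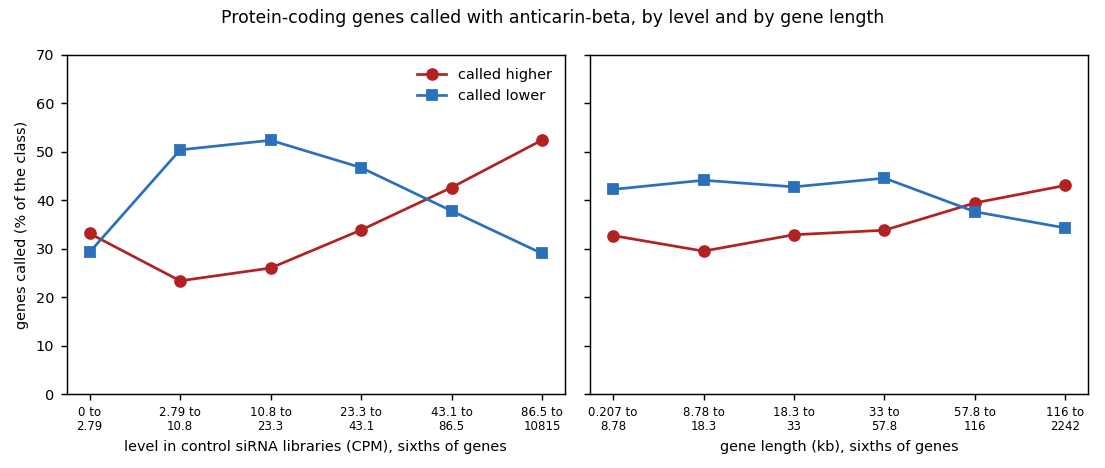
Share of protein-coding genes called higher (red circles) and lower (blue squares) with anticarin-beta, as % of genes in a class, across sixths of the level in the control siRNA libraries (left, CPM) and sixths of gene length (right, kb). The share called higher runs from 23.4% in the second level class to 52.4% in the highest, and from 32.7% among the shortest genes to 43.0% among the longest. It is 33.1% in the lowest level class, which holds genes that passed the filter only through counts in other groups.

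Among gene classes, the 123 sense-intronic transcripts tested had 45.5% called higher and 22.0% lower, and their median log2 fold change was 0.63. The 13810 protein-coding genes had 35.2% higher and 40.9% lower, with a median of -0.11. The 811 lincRNA genes stood at 32.2% and 33.5%. By chromosome the medians ran from -0.38 on chromosome 22 and -0.35 on chromosome 9 to 0.13 on chromosome 13, a narrow band beside the spread of single genes.

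The largest gains in transcript abundance went to secreted proteins and to the enzyme that starts prostaglandin synthesis. CXCL8, the neutrophil-attracting chemokine IL-8 (chromosome 4, 73740506 to 73743716 in GRCh38), was at 357, 562 and 605 CPM in the vehicle libraries and at 13202, 11606 and 12639.8 CPM with anticarin-beta. PTGS2, the inducible cyclooxygenase, was at 314, 593 and 694 and 10907, 11288 and 11519.7 CPM. THBS1, the matrix protein thrombospondin-1, was at 662, 751 and 883 and 12062, 11716 and 11751 CPM. Each of these treated values exceeds every vehicle value many times over, and vehicle replicate 1 was the lowest vehicle library for all of them. The rises were 24.6-fold (log2 4.62 ± 0.17 SE, edgeR adjusted p = 1.45e-10), 21.1-fold (log2 4.40 ± 0.23 SE) and 15.5-fold (log2 3.95 ± 0.10 SE).

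CTGF, a matrix-associated growth regulator that RefSeq names CCN2, rose from 3024, 4331 and 4413 to 12025, 11238 and 11385 CPM (log2 fold change 1.56 ± 0.11 SE). SQSTM1, the autophagy receptor p62, rose from 1104, 1531 and 1374 to 4769.7, 4672 and 5815 CPM (log2 1.93 ± 0.18 SE). The amino acid carrier gene SLC38A2 rose from 799, 929 and 1028 to 4325, 4351 and 4219 CPM (log2 2.23 ± 0.08 SE). JUN, an AP-1 subunit, went from 163, 181 and 182 to 3421, 3129 and 3179 CPM (log2 4.21 ± 0.08 SE). CHI3L1, a secreted chitinase-like protein, reached 7082, 7351 and 6947 CPM, but its vehicle values of 2257, 5198 and 5093 CPM were split, with replicate 1 lowest by a wide margin, and the call was lost with library totals alone.

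The largest losses were of another kind. Transcripts of the mitochondrial genome led them: MT-CO1, a cytochrome oxidase subunit, fell from 13577, 14492 and 13830.2 to 2862, 3194 and 3415 CPM. MT-CO2, MT-CYB and MT-ND5 fell by log2 values of -2.23, -2.04 and -2.46. PLEC, the cytoskeletal linker plectin, fell from 4601, 4270.1 and 4919.9 to 2098, 1969 and 1884 CPM. PITX1, a homeodomain transcription factor, fell from 1489.5, 1773 and 1680.1 to 287, 277 and 271 CPM (log2 -2.57 ± 0.09 SE), with all treated values within a narrow band. ACTB fell from 3105, 3017 and 2681 to 1522, 1509 and 2091 CPM, and here treated replicate 3 lay above the other treated libraries. HSP90AB1, which encodes a cytosolic HSP90 chaperone, lost much in absolute terms but little in proportion, from 10542, 9414 and 8724 to 7942, 8277 and 8334 CPM (log2 -0.22 ± 0.07 SE), and its call was lost with RLE scaling and with the 6 libraries fitted alone.

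The steepest proportional rises among genes of at least 20 CPM included 3 secreted factors. TSLP, an epithelial-type alarmin cytokine, went from 0.32, 0.241 and 0.107 CPM to 28.6, 26.1 and 29 CPM. IL20, a cytokine of the IL-10 family, went from 0.852, 1.33 and 1.02 to 93.3, 92.1 and 97.5 CPM. GDF15, a stress-induced hormone of the TGF-beta superfamily, went from 13.2, 25.4 and 29.9 to 2025, 1863 and 1873 CPM. No vehicle library came near the treated range of any of them. The others were transcription regulators, proteases and transcripts of less certain role. CREBRF, a regulator of CREB3 factors, rose from 25.2–33 to 1350.4–1429.7 CPM, and CREB5 rose from 5.19–10.9 to 605–642 CPM. ATF3 rose from 4.64, 5.13 and 5.24 to 184, 190.3 and 402 CPM, where replicate 3 was the high one. MMP3, the protease stromelysin-1, and PAPPA, which cleaves IGF-binding proteins, rose by log2 values of 5.62 ± 0.16 and 5.58 ± 0.27 SE. The lincRNA LINC00968 rose from 1.17–1.87 to 142–153 CPM, and the processed pseudogene RPL13AP20, whose reads could belong to its parent, from 0.586–1.03 to 35.1–38.6 CPM.

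The steepest falls were spread over unrelated functions. MRPS26, a mitochondrial ribosomal protein, fell from 25, 21.9 and 18.5 to 0.671, 0.185 and 0.0837 CPM. C10orf10 fell from 24, 51.7 and 44.5 to 0.587, 1.02 and 0.753 CPM. ADORA1, an adenosine receptor, fell from 37.7, 41.6 and 38.8 to 1.34, 1.29 and 1.34 CPM (log2 -4.88 ± 0.16 SE). The 3 treated ADORA1 values were almost equal. The dystroglycan gene DAG1, which links the matrix to the cytoskeleton, fell from 252, 229 and 243 to 7.88, 13.1 and 12.7 CPM. PVRL1, the adhesion molecule nectin-1, fell from 54.4–64.5 to 2.51–3.05 CPM. PAQR4, LZTS1 and the transcription factor PATZ1 fell by log2 values of -4.58, -4.49 and -4.68. RTN4RL1, a Nogo receptor relative, and SCARA5, a scavenger receptor, fell by -4.46 and -4.97 on the same scale. In SCARA5 and C10orf10 vehicle replicate 1 was the lowest of its group, yet still far above the treated libraries.

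**Figure D2:**
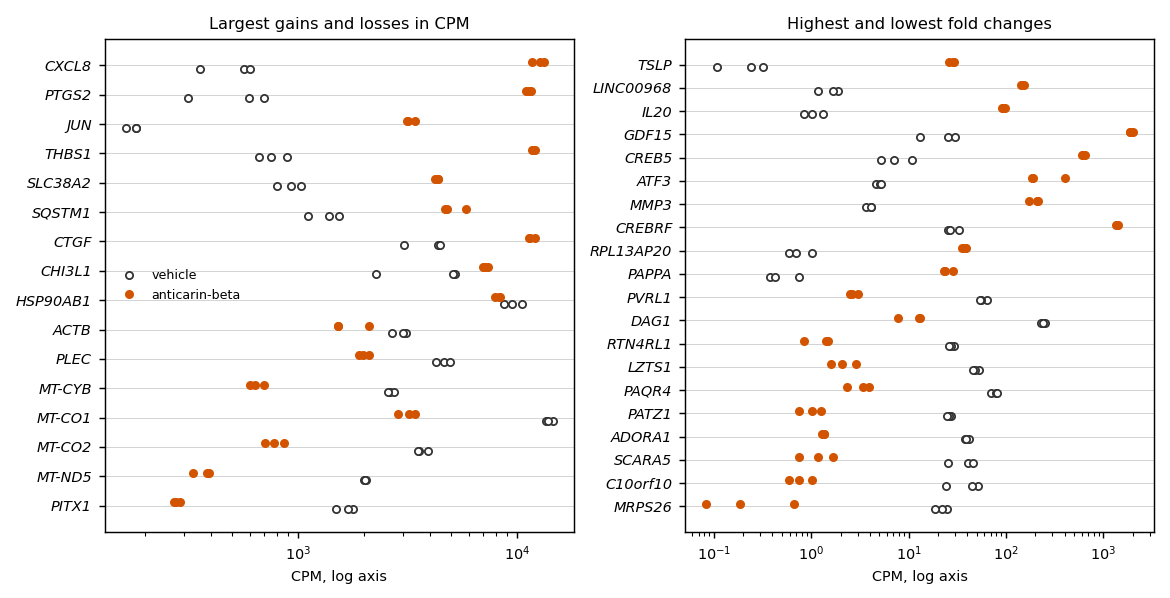
Levels of single genes in each library, in CPM on a log axis, with open circles for the 3 vehicle libraries and filled circles for the 3 anticarin-beta libraries. Left, the 8 largest gains and 8 largest losses in CPM; right, the 10 highest and 10 lowest fold changes among genes that reached 20 CPM in 1 of the groups. Only genes without overlap between the groups were taken, so the circles of the 2 groups cannot meet. HSP90AB1 shows the smallest gap.

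Secreted signals were read as lists of ligands. Cytokines stood highest of the 53 pathway lists: 17 of 19 tested were called higher and 2 lower, the median log2 fold change being 3.08 against -0.06 over all genes. LIF, a ligand of the gp130 receptor, rose from 73.4, 98.4 and 105 to 1141, 1084 and 1029.8 CPM (log2 3.56 ± 0.12 SE, edgeR adjusted p = 6.69e-11). IL11, of the same receptor family, rose from 0.639, 0.905 and 0.588 to 31.9, 26.3 and 29.1 CPM (log2 5.35 ± 0.18 SE). IL24 rose from 37.3–47.5 to 277–299 CPM, and CLCF1 from 13.5–15.5 to 167–172 CPM. These ligands had treated values above every vehicle value, with little spread between treated replicates. Of all tested genes 70.7% were called without overlap between the groups. Against that run, TNFSF10, the death ligand TRAIL, fell from 0.959, 2.23 and 2.67 to 0.168, 0.0924 and 0.335 CPM, and IL7, a lymphocyte survival factor, fell from 12.4, 22.9 and 17.2 to 8.47, 8.13 and 8.03 CPM.

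Among chemokines 11 of 14 were called higher and 1 lower, with a median of 1.73. Beside CXCL8, its close relatives CXCL1 and CXCL2, which bind the same receptor, rose from 170.1–214 to 924–1102 CPM and from 5.91–8.82 to 60.4–77.3 CPM. CXCL5 rose from 31.2–37.1 to 117–130.4 CPM. CXCL16 was the member that fell, from 11, 13.8 and 13.7 to 7.21, 8.04 and 11 CPM (log2 -0.55 ± 0.17 SE).

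The EGF receptor ligands divided. Of 9 tested, 4 rose, all over 2-fold, and 1 fell, or 4 and 3 with library totals alone. Their median log2 fold change was -0.26, which became 0.003 without vehicle replicate 3. Without vehicle replicate 2 the count called lower was 2. NRG1, a neuregulin that binds ERBB3 and ERBB4, rose from 1.17, 0.965 and 2.03 to 33.9, 36 and 39.6 CPM. HBEGF rose from 17.5, 14.6 and 14.3 to 88.6, 83.6 and 92.5 CPM and EREG from 0.426, 0.121 and 0.428 to 3.61, 5.45 and 3.68 CPM. NRG2, the sister gene of NRG1, fell from 4.74, 4.46 and 5.13 to 0.839, 0.739 and 0.335 CPM (log2 -2.90 ± 0.23 SE), so the neuregulins of these cells moved in opposite directions.

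Of 18 other secreted growth factors 11 rose and 5 fell, with a median of 0.70 that became 1.12 without vehicle replicate 3. INHBA, the activin A subunit, rose from 5.59, 4.83 and 6.15 to 89.6, 78.9 and 82.6 CPM. BDNF, a neurotrophin, rose from 21.6, 27.1 and 27.7 to 231, 220.1 and 222 CPM, and FGF5 from 33.4–38.8 to 134–146 CPM. PDGFB and PGF, which act on perivascular and endothelial cells, fell from 3.57–5.61 to 0.647–0.92 CPM and from 26.5–32.5 to 4.81–5.69 CPM.

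In the TGF-beta pathway, where ligands signal through SMAD proteins that induce their own inhibitors, 14 of 19 members rose and 2 fell, with a median of 0.69. The ligand genes parted. TGFB2 rose from 6.29, 6.09 and 6.63 to 58.7, 60.4 and 68.5 CPM (log2 3.30 ± 0.19 SE). TGFB3 fell from 20.9, 26.7 and 28.8 to 3.27, 3.33 and 3.43 CPM (log2 -2.93 ± 0.18 SE), and TGFB1 fell from 192, 253 and 257 to 122, 106 and 109 CPM (log2 -1.06 ± 0.10 SE). The inhibitory SMAD7 and the SMAD repressor SKIL rose from 32.4–37.7 to 154–179 CPM and from 35.2–50.4 to 326–346 CPM.

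The BMP list held 6 rises and 7 falls among 17 members, or 5 and 10 without vehicle replicate 1, where the median went from -0.09 to -0.28. BMP4 rose from 2.34, 1.93 and 2.14 to 29, 62.1 and 64.3 CPM, where treated replicate 1 was the lowest. The decoy receptor BAMBI rose from 8.37–10.1 to 49.7–56.4 CPM. The receptor gene BMPR1A fell from 50.1–56.9 to 16.5–20 CPM, and ID1, a textbook BMP target, fell from 184–222 to 92.2–99.6 CPM (log2 -1.09 ± 0.08 SE).

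Notch members were balanced, with 8 rises and 6 falls among 16, which became 5 and 7 with library totals alone. The ligand DLL4 rose from 0.16, 0.121 and 0.374 to 2.35, 2.5 and 3.1 CPM and the co-activator MAML2 from 3.89, 2.41 and 4.22 to 43.2, 47.9 and 49.1 CPM, while the ligands DLL1 and JAG2 fell by log2 values of -1.74 and -1.19. WNT members gave 10 rises and 8 falls among 21, or 8 and 10 with library totals alone. DKK1, a secreted WNT antagonist, rose from 149.7, 175 and 167 to 1479, 1377 and 1466 CPM (log2 3.14 ± 0.07 SE). SFRP1, another antagonist, went the other way, from 80.1, 79.7 and 78.8 to 10.7, 13.6 and 11.3 CPM (log2 -2.75 ± 0.09 SE). The ligand WNT7B fell from 88.2–102 to 8.78–15 CPM.

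Targets of YAP and TEAD, the transcription pair at the end of the Hippo pathway, rose nearly without exception: 17 of 18 were called higher and none lower, with a median of 1.90, and 1 was called lower without vehicle replicate 1. Scaled by library totals, 14 rose and 1 fell. CYR61, a matricellular protein, rose from 203, 289 and 285 to 2434, 2196 and 2229.9 CPM (log2 3.14 ± 0.13 SE). LATS2, a Hippo kinase, rose from 32.1, 32.2 and 36.5 to 535, 554 and 557 CPM (log2 4.03 ± 0.08 SE). ARHGEF17 rose from 70–75.2 to 338–348 CPM. For these 3 genes every treated value lay above every vehicle value, where 70.7% of all tested genes were called without overlap. The RefSeq promoter of CTGF (GRCh38.p14, chr6:131951373-131951622, minus strand) is shown because it holds the TEAD motif ACATTCC, which on either strand is found in 1.91% of the promoters of tested genes. It was found in 2 of the 13 list members with a promoter in the table (15.4%), and in 4 of 26 autophagy promoters (15.4%). A match is not evidence of binding. The 250 bases before the gene start are printed 5′ to 3′ with the motif, or its reverse complement, in capitals, 95 bases before the start.
CTGF: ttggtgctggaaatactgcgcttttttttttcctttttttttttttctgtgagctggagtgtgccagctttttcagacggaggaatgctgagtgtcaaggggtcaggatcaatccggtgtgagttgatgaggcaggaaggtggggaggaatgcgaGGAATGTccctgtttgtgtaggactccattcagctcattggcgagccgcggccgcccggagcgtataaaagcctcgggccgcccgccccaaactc

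Members of the KLF family of zinc-finger transcription factors rose almost as a block, 12 of 13 with none lower and a median of 1.61. KLF5 rose from 71.1, 68.4 and 66.8 to 564, 574 and 592 CPM (log2 3.07 ± 0.06 SE). KLF7 rose from 44.3–60 to 346–365 CPM, KLF10 from 56.6–66.6 to 309–328 CPM and KLF12 from 15.9–20.4 to 68.4–75 CPM. The steepest member was KLF15, known as a glucocorticoid-induced metabolic regulator and named after its values were seen, at 0.32, 0.241 and 0.321 CPM with vehicle and 11.8, 11.4 and 12.3 CPM with the compound. With library totals alone 9 members were higher and 1 lower.

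Clock genes also moved together. The circadian oscillator is a loop in which CLOCK and ARNTL switch on the PER and CRY repressors, with NR1D1 as a further repressor. Of 17 members 14 rose and 1 fell, with a median of 1.41. NR1D1 rose from 12.4, 14.3 and 12.5 to 259, 264 and 280.3 CPM (log2 4.36 ± 0.08 SE). CRY1 rose from 16.3, 14.2 and 16.3 to 319, 295 and 326 CPM (log2 4.33 ± 0.09 SE), and PER1 rose from 11, 9.89 and 12.8 to 135, 155 and 145 CPM (log2 3.68 ± 0.10 SE). CRY2 rose from 11.3–12.4 to 54.8–62.4 CPM. BHLHE40, a further repressor, was the exception, at 71.8, 99.6 and 105 CPM with vehicle and 75.5, 78.2 and 73 with the compound, where the groups overlapped. Its call (log2 -0.29 ± 0.11 SE, edgeR adjusted p = 0.0332) was lost with RLE scaling, with DESeq2 and when any of vehicle replicates 2 and 3 or any treated replicate was left out. Only 18 h was sampled, so the phase of the cycle in either group is unknown.

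SOX factors split into 6 rises and 5 falls among 11. SOX18, a vascular factor, nearly vanished, from 10.1, 8.57 and 8.5 CPM to 0, 0.185 and 0.0837 CPM, and SOX12 and SOX13 fell by log2 values of -1.12 and -1.08, while SOX4 rose from 41.3–46.1 to 79.5–83.2 CPM. The MYC and MAX network gave 4 rises and 5 falls among 12. MNT and ZBTB17, partners that can oppose MYC, rose from 55.9–68.7 to 149–159.7 CPM and from 18–19.9 to 59–70.9 CPM. MXD4 and MXD3, of the MAX dimerization family, fell by log2 values of -1.55 and -0.60.

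Lysosomal genes mostly rose. Of 34 proton pump and lysosomal genes 29 were called higher, 23 of them over 2-fold, and 3 lower, and their median log2 fold change was 1.43. Scaled by library totals, 26 rose and 5 fell, with a median of 1.01 against -0.48 over all genes. Over all tested genes 34.9% were called higher and 20.9% were called higher by over 2-fold.

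For 4 of these genes the RefSeq promoter (GRCh38.p14) holds TCACGTGA, the core palindrome bound by TFEB-family factors and called the CLEAR core, and their 250 bases before the gene start are shown with that motif in capitals. They are ATP6V0D1 (chr16:67481158-67481407, minus strand) and ATP6V1G1 (chr9:114587519-114587768, plus strand), subunits of the proton pump, LAMP1 (chr13:113296989-113297238, plus strand), a membrane glycoprotein, and CTSA (chr20:45891085-45891334, plus strand), a carboxypeptidase. The motif begins 60, 59, 29 and 26 bases before the start. It was found in 4 of the 22 list members with a promoter in the table (18.2%), in 1.60% of the promoters of all tested genes and in 0.890% of all 27305 promoters. Other lists held it too, among them 3 of 19 promoters of the mismatch and base excision repair list (15.8%), which mostly fell, and 3 of 23 of the pause release list. Since 12 of the 34 members have no entry, the share is not that of the list, and a match is not evidence of binding.
ATP6V0D1: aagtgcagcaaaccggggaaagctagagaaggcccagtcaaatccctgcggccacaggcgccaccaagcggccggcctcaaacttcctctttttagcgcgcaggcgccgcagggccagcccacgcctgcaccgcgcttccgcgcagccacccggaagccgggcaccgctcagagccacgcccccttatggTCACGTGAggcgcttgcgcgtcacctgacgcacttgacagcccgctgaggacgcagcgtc
ATP6V1G1: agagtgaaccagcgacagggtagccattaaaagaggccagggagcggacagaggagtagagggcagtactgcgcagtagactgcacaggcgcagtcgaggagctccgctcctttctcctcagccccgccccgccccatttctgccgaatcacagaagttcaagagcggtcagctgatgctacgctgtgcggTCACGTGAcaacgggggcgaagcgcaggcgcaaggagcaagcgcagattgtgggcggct
LAMP1: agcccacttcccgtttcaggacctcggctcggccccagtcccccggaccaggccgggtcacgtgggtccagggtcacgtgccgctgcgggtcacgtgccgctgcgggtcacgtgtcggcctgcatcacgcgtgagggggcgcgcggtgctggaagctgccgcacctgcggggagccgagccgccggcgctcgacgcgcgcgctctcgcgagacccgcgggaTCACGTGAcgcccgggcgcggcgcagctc
CTSA: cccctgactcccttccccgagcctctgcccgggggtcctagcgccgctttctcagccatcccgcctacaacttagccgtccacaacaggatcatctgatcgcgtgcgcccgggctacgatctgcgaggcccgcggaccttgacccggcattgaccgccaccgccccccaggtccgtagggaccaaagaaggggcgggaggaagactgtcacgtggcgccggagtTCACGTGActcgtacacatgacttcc

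These 4 genes, named for the motif, all rose. ATP6V0D1 was at 44.2, 33.2 and 37.6 CPM with vehicle and 172, 163 and 183 with the compound (log2 2.17 ± 0.10 SE). ATP6V1G1 was at 77.2, 83.1 and 73.6 and 248, 243 and 232 CPM (log2 1.63 ± 0.07 SE). LAMP1 was at 329, 353 and 436 and 868, 874 and 888 CPM (log2 1.23 ± 0.09 SE), and CTSA at 128, 177 and 151 and 452, 423 and 447 CPM (log2 1.54 ± 0.10 SE). No treated value of any of them overlapped a vehicle value, which also held for the 70.7% of all tested genes called without overlap.

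Pump subunits gave the 2 largest rises of the list. ATP6V1B2, a nucleotide-binding subunit, rose from 84, 76.8 and 88.6 to 1048, 999.8 and 1021 CPM (log2 3.62 ± 0.07 SE, edgeR adjusted p = 1.88e-12). ATP6V1C1, a subunit that couples head and membrane part, rose from 73, 65.2 and 68.5 to 762, 812 and 845 CPM (log2 3.55 ± 0.08 SE). ATP6V1A rose from 109, 108 and 114 to 362, 399 and 391 CPM (log2 1.80 ± 0.07 SE). The sialidase NEU1 rose from 14.2, 16.9 and 14.6 to 85.5, 82.1 and 90.9 CPM (log2 2.50 ± 0.10 SE). In contrast the protease gene CTSL fell from 119.7, 116 and 127 to 40.5, 37.6 and 46.5 CPM (log2 -1.54 ± 0.11 SE), and ATP6V0A2, a Golgi-type isoform of the pump, fell from 28.1, 25.2 and 29.1 to 20.6, 23.7 and 19.4 CPM (log2 -0.37 ± 0.11 SE).

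Autophagy genes, which build the vesicles that deliver cargo to lysosomes, gave 16 rises and 7 falls among 28, with a median of 0.78, or 14 and 12 with a median of 0.37 with library totals alone. ATG2A, a lipid transfer protein, rose from 43.9, 40 and 45.1 to 171, 152 and 155 CPM. ATG3, a conjugation enzyme, and ATG14, a lipid kinase subunit, rose from 48.9–57.1 to 167–194 CPM and from 26.7–29.6 to 85.2–94.7 CPM. The ubiquitin-like cargo adaptors GABARAPL1 and MAP1LC3B, named after their values were seen, had log2 fold changes of 3.04 ± 0.31 and 2.58 ± 0.34 SE. ATG10 fell from 5.75, 5.97 and 6.42 to 1.43, 1.76 and 1.92 CPM and WIPI2 from 76.6, 70.8 and 73 to 29.5, 29.6 and 31.3 CPM, so the machinery was not raised throughout.

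Genes of DNA repair mostly fell. Of 30 homologous recombination and Fanconi genes 28 fell, 21 of them over 2-fold, and 2 rose, with a median of -1.72. Over all tested genes 38.0% were called lower and 24.8% were called lower by over 2-fold. RAD51D, a recombination factor, fell from 20, 22 and 24.2 to 2.01, 2.03 and 1.76 CPM. FANCG, of the Fanconi core complex, fell from 21.4, 21.4 and 20.4 to 2.26, 2.96 and 2.18 CPM, and the nuclease EXO1 fell from 57.4, 54.8 and 54.5 to 7.3, 9.61 and 8.87 CPM. BRCA1 fell from 49.4, 53.7 and 48.9 to 8.22, 8.6 and 9.54 CPM (log2 -2.53 ± 0.10 SE, edgeR adjusted p = 3.84e-10). All treated values of these genes lay under all vehicle values. Members are named by smallest p, which favours such separation, and 70.7% of all tested genes were called without overlap. The exceptions were FANCM, a translocase, which rose from 9.91, 8.44 and 11.3 to 19, 22.4 and 23.3 CPM, and FANCB, at 13.5, 7.54 and 11.9 and 15.9, 16.1 and 14.2 CPM, whose call (edgeR adjusted p = 0.0272) was lost with upper-quartile scaling, with library totals alone and without vehicle replicate 2 or treated replicate 1 or 2.

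Mismatch and base excision repair gave 19 falls and 2 rises among 24, with a median of -1.77, the lowest of the 53 lists. NEIL2, a DNA glycosylase, fell from 8.26, 8.14 and 6.47 to 0.587, 0.37 and 0.502 CPM. MSH3, a mismatch sensor, fell from 28.1, 24.7 and 25.8 to 2.43, 2.77 and 2.84 CPM (log2 -3.29 ± 0.13 SE). PCNA, the sliding clamp shared by replication and repair, fell from 207, 241 and 206 to 43.8, 38.2 and 36 CPM (log2 -2.47 ± 0.11 SE). TDG, a thymine glycosylase, rose from 41.4, 34.2 and 35.2 to 119.9, 121 and 116 CPM. NEIL1 rose from low and scattered values of 0.746, 2.23 and 0.321 CPM to 2.77, 2.68 and 3.6 CPM, and that call was lost with library totals alone and without vehicle replicate 1 or treated replicate 3. The promoter of PCNA (RefSeq, GRCh38.p14, chr20:5126623-5126872, minus strand) is shown for its E2F-type motif, TTTGGCGC or TTTCCCGC on either strand, found in 2.89% of the promoters of tested genes. The motif is in capitals and begins 59 bases before the start. Of list members with a promoter in the table, 2 of 19 in this list (10.5%) held it. In the recombination and Fanconi list it was 1 of 26 (3.85%). Other lists held it more often, among them 5 of 18 promoters of the G1 list (27.8%) and 2 of 13 of the histone mRNA and Integrator list (15.4%). A match is not evidence of binding.
PCNA: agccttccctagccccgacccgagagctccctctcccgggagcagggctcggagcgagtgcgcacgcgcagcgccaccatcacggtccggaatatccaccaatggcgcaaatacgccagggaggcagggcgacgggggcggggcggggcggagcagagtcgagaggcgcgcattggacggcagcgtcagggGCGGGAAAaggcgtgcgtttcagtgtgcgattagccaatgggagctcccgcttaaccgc

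**Figure D3:**
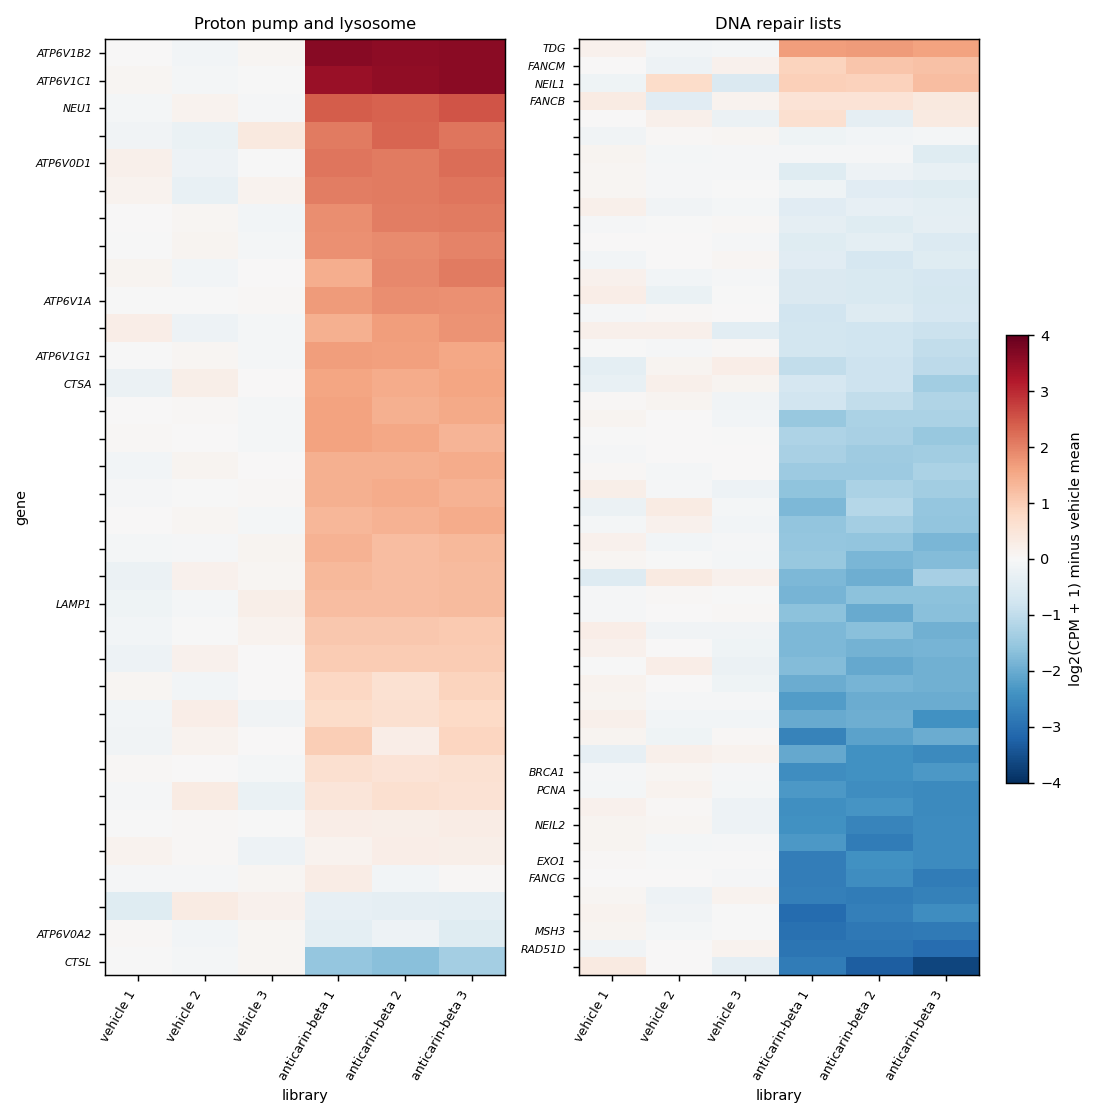
Levels of genes of the lysosome list (left) and of both DNA repair lists (right) in each of the 6 libraries, as log2(CPM + 1) minus the mean of the 3 vehicle libraries, red for higher and blue for lower; genes named in the text are labelled. The columns of the 3 treated libraries look alike: red for most lysosomal genes, with CTSL at the bottom in blue, and blue for most repair genes, with TDG and FANCM at the top in red.

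Among G1 cyclins, CDK inhibitors and E2F factors 8 rose and 10 fell of 24. The pocket protein gene RBL2 fell from 149, 158 and 168 to 19.5, 20.4 and 20 CPM (log2 -2.98 ± 0.08 SE). CDK6, a G1 kinase, rose from 142, 107 and 135 to 636, 659 and 641 CPM (log2 2.33 ± 0.09 SE). Among the E2F factors, E2F2 fell from 38.8–45.1 to 11.8–12.4 CPM and E2F5 rose from 7.86–9.95 to 44.3–45.8 CPM. Kinesin motor genes gave 10 rises (33.3%) and 13 falls (43.3%) among 30, near the 34.9% and 38.0% over all genes. KIF18A, a mitotic motor that limits microtubule growth, rose from 25.4, 18.9 and 20.3 to 116, 140.4 and 136 CPM, whereas KIF4A, a chromosome-bound motor, fell from 62.7, 48.1 and 46.1 to 13.8, 15.9 and 16.1 CPM and KIF3C by a log2 value of -1.83. KIFC3 rose from 373–392 to 909.6–948 CPM.

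Stress-response targets other than the lysosome were divided. Targets of NRF2, the oxidant-responsive factor, gave 10 rises and 11 falls among 21. GCLM, needed for glutathione synthesis, fell from 211, 210.4 and 215 to 49.6, 51.3 and 47.1 CPM (log2 -2.10 ± 0.07 SE). SLC7A11, which brings in cystine for the same pathway, rose from 114, 92.4 and 103 to 309, 299 and 287 CPM (log2 1.53 ± 0.09 SE). The peroxiredoxin repair enzyme SRXN1 fell and the export pump ABCC1 rose, by log2 values of -1.78 and 1.07.

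Metallothioneins and their regulators parted similarly, with 2 rises and 3 falls among 6. The zinc exporter SLC30A1 rose from 131, 129 and 147 to 716, 681 and 667 CPM and the zinc sensor MTF1 from 28.8–34.4 to 66.7–75.2 CPM. The metallothioneins MT1M and MT1E, near-identical copies of other family genes, fell from 6.47–11.9 to 1.76–2.52 CPM and from 48.1–60.1 to 21.6–33.6 CPM. Interferon-stimulated genes gave 7 rises (26.9%), none over 2-fold, and 12 falls (46.2%) among 26, or 3 and 18 with library totals alone. These shares are near the 34.9% and 38.0% over all genes, so the count is not a result about the list. MX1, an antiviral GTPase, fell from 115, 152 and 198 to 32.1, 30.3 and 35.6 CPM and OAS2 from 58.6, 76 and 99.5 to 17.9, 21.5 and 20.3 CPM. Their vehicle values differed among themselves and were lowest in replicate 1. GBP1 rose from 40–54 to 74.7–96.4 CPM and IFIT2 from 67.6–70.1 to 98.4–104 CPM.

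**Figure D4:**
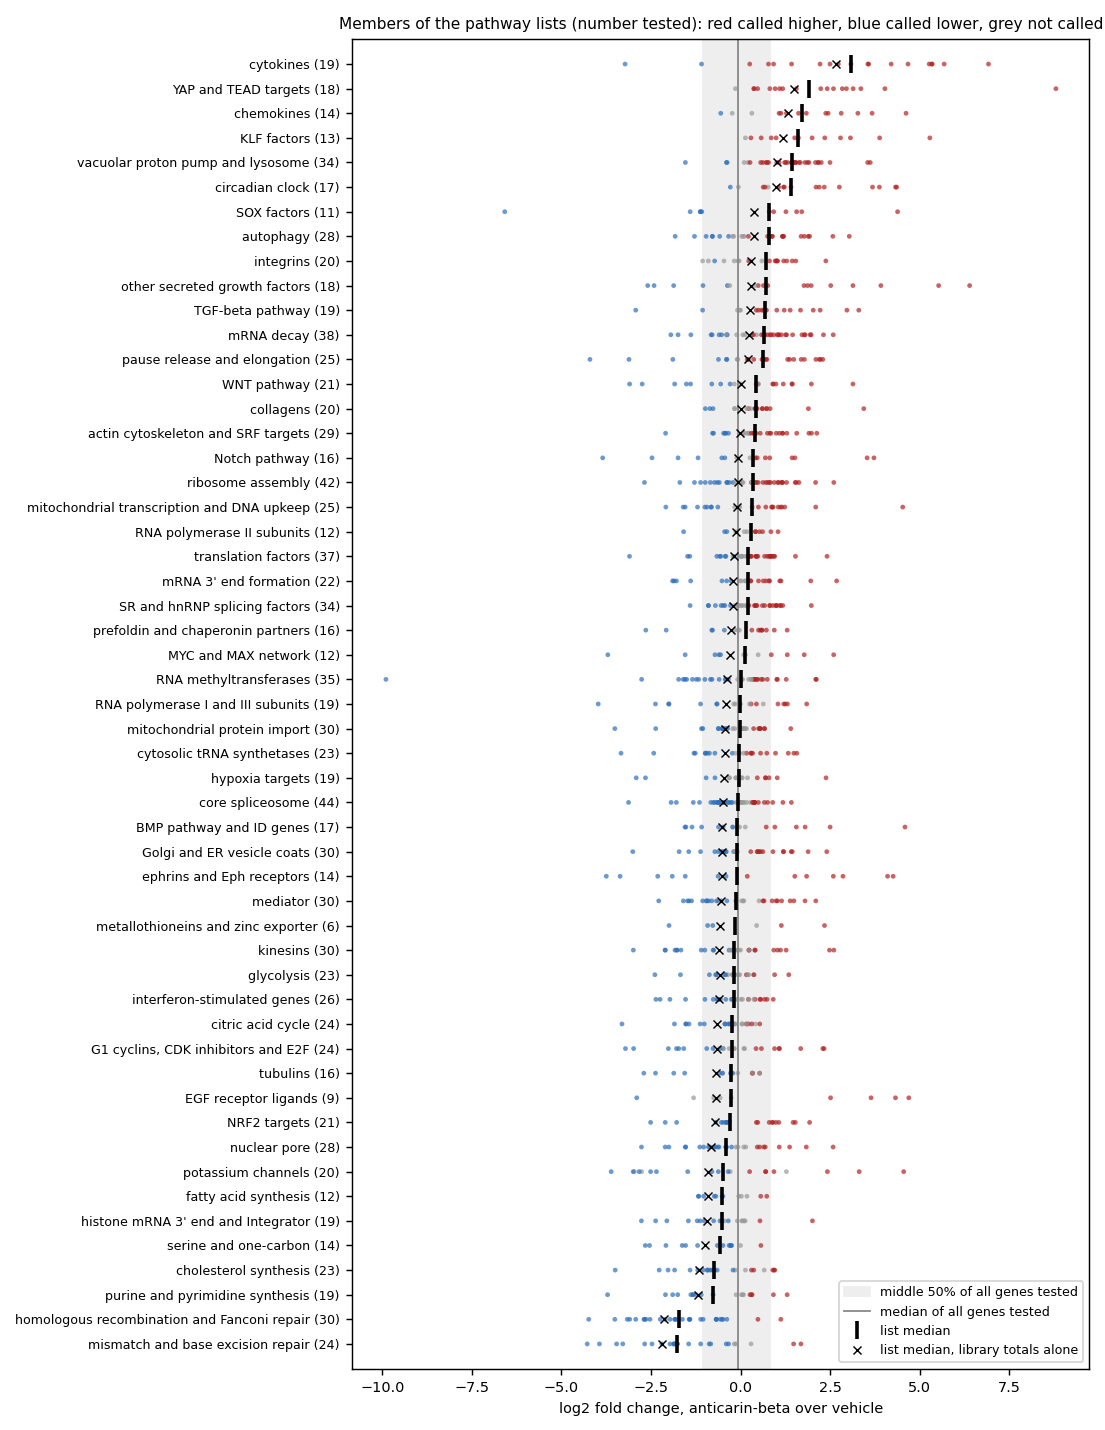
Log2 fold change with anticarin-beta over vehicle for each tested member of the 53 pathway lists, sorted by list median, with red points called higher, blue called lower and grey not called. Thick bars mark list medians with TMM scaling and crosses those with library totals alone; the grey band runs between the quartiles of all genes, -1.04 and 0.83, and the line their median of -0.06. Cytokines are highest at 3.08 and mismatch and base excision repair lowest at -1.77, and every cross lies left of its bar, so lists with a bar near 0 change side with the scaling.

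Biosynthetic pathways leaned to the lower side. In serine and one-carbon metabolism 12 of 14 genes fell and 1 rose, with a median of -0.57. PSPH, the last enzyme of serine synthesis, fell from 20.9, 22 and 18.8 to 3.94, 2.87 and 2.93 CPM. TYMS, which makes thymidylate, fell from 115, 128 and 95.1 to 29.8, 26.5 and 23.6 CPM (log2 -2.08 ± 0.15 SE), and MTHFD1 from 145–174 to 48.9–52.8 CPM. The mitochondrial counterpart MTHFD2 was the member that rose, from 123, 113 and 113 to 159, 194 and 165 CPM, a call lost with library totals alone.

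Purine and pyrimidine synthesis gave 10 falls and 5 rises among 19, with a median of -0.77. CTPS2, a CTP synthase, fell from 29, 26.8 and 31.6 to 1.84, 2.03 and 2.76 CPM. IMPDH2 and ATIC of the purine route fell from 96.8–112 to 26.8–30.6 CPM and from 146–173 to 44.4–49.5 CPM. PPAT, which commits the route, rose from 37.2–44 to 75.8–77.1 CPM and PRPS1, which supplies its ribose phosphate, from 61.1–73.5 to 145–184 CPM.

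Cholesterol synthesis gave 15 falls and 5 rises among 23, with a median of -0.75. MVK, the mevalonate kinase, fell from 20.9, 17.5 and 17.5 to 1.09, 1.39 and 2.43 CPM (log2 -3.50 ± 0.20 SE) and PMVK, the next enzyme, from 32.4–33.5 to 11.4–13.7 CPM. ACAT2 fell from 49–56.7 to 11.6–14 CPM. SREBF2, the pathway's transcription factor, rose from 247–269.6 to 467–495 CPM. In fatty acid synthesis 7 of 12 fell and 2 rose. ACLY, which makes cytosolic acetyl-CoA, fell from 283–303 to 126–135 CPM and FASN from 599.7–656 to 426–471 CPM.

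The citric acid cycle list held 14 falls and 4 rises among 24, with a median of -0.24. IDH1, the cytosolic isocitrate dehydrogenase, fell from 77.8, 76 and 66.7 to 8.05, 6.1 and 8.03 CPM (log2 -3.31 ± 0.12 SE), and its mitochondrial relative IDH2 fell from 119–163 to 48.7–54.2 CPM. The fumarase gene FH fell from 121–135 to 43.1–46.3 CPM. MDH2 rose from 175–205 to 255–289.8 CPM, a call lost with library totals alone. Glycolysis gave 4 rises and 10 falls among 23. The regulators of phosphofructokinase divided: PFKFB3 rose from 34–37.8 to 86.8–93.5 CPM and PFKFB4 fell from 15.9–22.6 to 3.35–4.16 CPM. Hypoxia targets gave 6 rises and 4 falls among 19, or 3 and 11 with library totals alone and 6 and 8 without vehicle replicate 1. ADM, a vasodilator peptide, rose from 54.9, 63 and 80.8 to 369, 339.7 and 331 CPM, whereas the mTOR inhibitor gene DDIT4 fell from 154, 238 and 233 to 39.2, 34.7 and 25.5 CPM and EGLN3 from 15.8, 30.8 and 20 to 3.44, 2.87 and 2.51 CPM.

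Complexes of the translation and RNA machinery contained strong movers in both directions. The cytosolic tRNA synthetases gave 10 rises and 10 falls among 23, or 5 and 14 with library totals alone. FARSB, a subunit of phenylalanine synthetase, fell from 102, 82.8 and 78.4 to 9.56, 7.76 and 8.7 CPM and GARS rose from 141, 149.9 and 142 to 385, 415 and 414 CPM. Translation factors gave 19 rises and 9 falls among 37, a balance that turned to 9 and 17 with library totals alone. EIF1, which guards start codon choice, rose from 131, 145 and 128 to 746, 695 and 715 CPM (log2 2.41 ± 0.09 SE). EIF2B3, EIF2B4 and EIF2B1, subunits of the exchange factor that recharges eIF2, fell by log2 values of -3.10, -1.48 and -1.42. Ribosome assembly gave 21 rises and 13 falls among 42, which turned to 14 and 18 with library totals alone. RRP12 rose from 62.4, 52.5 and 49.2 to 335, 335 and 328 CPM, while WDR12 fell from 56.3, 44.9 and 42.5 to 6.71, 7.3 and 8.37 CPM.

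Genes that control the pausing of polymerase II near promoters moved in both directions. Of 25 members 17 rose and 6 fell, with a median of 0.62, or 11 and 10 with library totals alone. AFF4 and ELL, of the super elongation complex that helps polymerase II leave a pause, rose from 214, 181 and 215 to 977, 1032 and 992 CPM and from 39–41.3 to 182–188 CPM. NELFB, a subunit of the pausing factor NELF, fell from 81.5, 73.6 and 68.2 to 6.71, 8.6 and 10.5 CPM (log2 -3.11 ± 0.14 SE). HEXIM1, an inhibitor of the pause-release kinase, fell from 81.6, 75.8 and 71.5 to 22, 20.8 and 19 CPM (log2 -1.89 ± 0.08 SE), and its relative HEXIM2, named after its values were seen, had a log2 fold change of -4.20 ± 0.44 SE.

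The RNA polymerase lists were mixed. For polymerase II 6 of 12 subunits rose and 3 fell, or 2 and 5 with library totals alone. POLR2B, the second largest subunit, rose from 94.6–114 to 203–221 CPM, and POLR2I fell from 14.2–16.8 to 4.71–5.44 CPM. For polymerases I and III 7 rose and 7 fell of 19, or 5 and 10 with library totals alone. POLR3E rose from 54.6–61 to 132–137 CPM. Mediator gave 10 rises and 13 falls among 30, and MED13, of its kinase module, rose from 96.4, 74.6 and 99.2 to 374, 396 and 389 CPM.

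Splicing lists also held both directions. Of 34 SR and hnRNP factors 17 rose and 8 fell, which turned to 11 and 17 with library totals alone. The kinases of SR proteins parted, CLK1 rising from 29.5, 33.7 and 31.8 to 125, 119 and 129 CPM and CLK2 falling from 29, 33.6 and 38.4 to 11.7, 12.7 and 13.7 CPM. In the core spliceosome 12 rose and 20 fell of 44. SF3B1, which binds the branch point region, rose from 331, 292 and 311 to 811, 841 and 844 CPM. PRPF8, at the catalytic centre, fell from 583, 468 and 513 to 199.8, 212 and 215 CPM, and LSM2 fell from 32.7, 28.2 and 28.3 to 3.44, 3.51 and 3.26 CPM.

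In 3′ end formation 11 of 22 rose and 7 fell, or 7 and 11 with library totals alone. RBBP6 rose from 104, 84.7 and 89.1 to 558, 614 and 609 CPM, and CPSF3, the nuclease that cuts the transcript, fell from 55.9, 57.8 and 52.4 to 15.8, 18.2 and 14.1 CPM. Histone mRNA processing and Integrator genes gave 11 falls and 2 rises among 19, with a median of -0.52. LSM10, of the particle that processes histone transcripts, fell from 20.7, 21.3 and 18.3 to 3.86, 3.23 and 4.52 CPM and INTS10 from 57.6, 53.9 and 49.5 to 8.81, 8.6 and 6.28 CPM, while INTS6 rose from 44.6, 41.1 and 46 to 179.8, 171 and 179.6 CPM. Of 42 tested protein-coding genes whose symbol begins with HIST, 37 (88.1%) were called higher and none lower, with a median of 2.84. Over all tested genes 34.9% were called higher. Histone genes have close copies, so reads may be split among them, and a link to the processing genes was not tested. Whether the library method selected polyadenylated RNA was not given in the sources used here.

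Genes of mRNA decay rose more often than they fell, 23 against 9 of 38, with a median of 0.66. DCP1A, a decapping co-factor, rose from 23.3, 22.3 and 24.9 to 116, 115 and 119 CPM (log2 2.31 ± 0.07 SE). TOB1 and PATL1, which recruit the deadenylation and decapping machinery, rose from 60.5–61.6 to 232–238 CPM and from 88.5–91.2 to 288–327 CPM. CNOT11, of the CCR4-NOT complex, fell from 41–47.7 to 16.3–17.5 CPM. Nuclear pore genes gave 8 rises and 16 falls among 28. NUP58 of the central channel rose from 85.5, 80.3 and 79.3 to 497, 497 and 477 CPM and the scaffold gene NUP205 fell from 110.5, 91.1 and 99.9 to 25.8, 25.2 and 24.3 CPM. RNA methyltransferases gave 13 rises and 16 falls among 35. MRM1, which acts on mitochondrial ribosomal RNA, fell from 10.2, 9.59 and 10.2 to 1.59, 1.29 and 1.51 CPM.

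Among nuclear genes that serve mitochondria, the import and the transcription lists held strong movers in both directions. Their counts were near the shares over all genes. Genes of the mitochondrial ribosome, given below by symbol stem, fell more often than they rose. Mitochondrial protein import gave 8 rises (26.7%) and 12 falls (40.0%) among 30, near the shares over all genes, or 11 and 11 without vehicle replicate 1 and 3 and 19 with library totals alone. SAMM50, which inserts proteins into the outer membrane, fell from 74.5, 64 and 60.4 to 6.04, 5.64 and 5.77 CPM (log2 -3.51 ± 0.12 SE). TIMM44, of the inner membrane motor, rose from 85.9, 73.4 and 68.9 to 200.2, 197 and 206 CPM. In mitochondrial transcription and DNA upkeep 11 rose (44.0%) and 9 fell (36.0%) of 25, or 10 and 12 with library totals alone. POLRMT, the mitochondrial RNA polymerase, fell from 45.3, 40.7 and 37.1 to 9.9, 8.69 and 10.4 CPM (log2 -2.09 ± 0.11 SE). Its partner TFB2M rose from 36.3, 25.7 and 28 to 129, 126 and 131 CPM, and the DNA-packaging factor TFAM rose from 47.8–54.5 to 94.7–100.5 CPM. The co-activator PPARGC1A, named after its values were seen, was at 0.107, 0.241 and 0.214 CPM with vehicle and 5.45, 5.18 and 2.76 CPM with the compound.

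Genes that share a symbol stem give a view without chosen lists. Over all tested genes 34.9% were called higher and 38.0% lower. Among 61 stems with at least 20 tested genes, MRPL genes of the large mitochondrial ribosomal subunit had 33 falls and 5 rises among 48, with a median of -0.89. MRPS genes of the small subunit had 17 falls and 3 rises among 29, with a median of -0.66. CEP genes, most of them centrosomal, had 27 falls and 6 rises among 36, with a median of -1.01. The lowest stem was ARHGEF, of exchange factors for small GTPases, with 15 falls and 6 rises among 22 and a median of -1.13. ARHGAP genes, whose products switch small GTPases off, had 15 rises and 8 falls among 28, with a median of 0.51 that became 0.09 with library totals alone. The ZNF stem, the largest, had 193 falls and 100 rises among 438, with a median of -0.43.

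Actin and SRF targets gave 17 rises and 7 falls among 29, with a median of 0.39 that became -0.03 with library totals alone. MKL1, the SRF co-activator, rose from 45.3, 41.9 and 46.8 to 184, 171 and 175 CPM and ZYX, the focal adhesion protein zyxin, from 130.3, 139 and 118 to 295, 306 and 273 CPM. Among tubulins 3 of 16 rose, of which 1 was called without treated replicate 1 and none with library totals alone, and 8 fell. TUBB, the main beta tubulin gene, fell from 1660.4, 1573 and 1509 to 431, 429 and 443 CPM and TUBG1, the nucleating gamma tubulin, from 99.1, 84.5 and 78.9 to 12.2, 13.4 and 14.8 CPM. Tubulin genes have close copies, so reads may be split among them.

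Prefoldin and other partners of the chaperonin gave 8 rises and 5 falls among 16, which turned to 3 and 8 with library totals alone. The prefoldin subunit PFDN2 rose from 79.1, 65.7 and 63.6 to 164, 177 and 172 CPM. PDCL3, a phosducin-like partner, fell from 26.6, 24.1 and 17 to 3.61, 3.79 and 3.43 CPM and TBCD, a tubulin-folding cofactor, from 60.5, 63.5 and 58.8 to 16.2, 14 and 13.2 CPM.

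Integrins gave 11 rises and 1 fall among 20, with a median of 0.70 that became 0.44 without vehicle replicate 1. With library totals alone 9 integrin genes rose and 6 fell, and the median was 0.29. ITGA5 and ITGAV, alpha chains of fibronectin and vitronectin receptors, rose from 289, 326 and 334 to 665, 657 and 622 CPM and from 187–226 to 409–421 CPM. ITGB8 rose from 35.5–54.4 to 117–123 CPM. The called fall was in ITGA4, from 52.9, 36.1 and 45.2 to 27.4, 27.4 and 26.5 CPM. Collagens gave 13 rises and 3 falls among 20, or 6 and 7 with library totals alone. COL8A1 rose from 21.5, 15.5 and 18.1 to 177, 185 and 237 CPM and COL12A1 from 151, 126 and 154 to 529, 541 and 532 CPM, while COL27A1 fell from 20.7–23.9 to 10.7–13.2 CPM.

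Ephrins and their receptors, which signal between touching cells, split evenly into 7 rises and 7 falls among 14, or 5 and 8 with library totals alone. The ligand EFNB2 rose from 4.8, 2.59 and 2.25 to 63.8, 58.6 and 63.3 CPM (log2 4.26 ± 0.25 SE), whereas the ligand EFNB1 fell from 51.7, 43.2 and 48 to 4.19, 3.14 and 3.26 CPM (log2 -3.75 ± 0.13 SE). The receptor EPHA2 rose from 134, 110.0 and 117 to 742, 718 and 714 CPM, EPHA4 rose from 0.852–1.44 to 17.6–22.5 CPM, and EPHB3 fell from 11.6–14.1 to 3.05–3.85 CPM. Potassium channel genes gave 7 rises and 9 falls among 20. KCNJ2, an inward rectifier, rose from 10.7, 13.9 and 16.4 to 128, 141 and 139 CPM. KCNK6, a background channel, fell from 92.8, 75.3 and 80.7 to 5.62, 7.12 and 7.61 CPM and KCNC4 from 21.2–28 to 2.68–3.97 CPM. Vesicle coat genes of the Golgi and endoplasmic reticulum gave 13 rises and 12 falls among 30, or 7 and 16 with library totals alone. The fusion protein SEC22B rose from 134, 141 and 156 to 763, 778 and 747 CPM and COPG1, a coatomer subunit, fell from 229, 261 and 242 to 77.7, 71 and 74.5 CPM.

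Some genes were close to absent in one group. With at most 3 counts over the 3 vehicle libraries and a mean of at least 1 CPM with the compound, 106 genes appeared, 52 of them protein coding and 21 lincRNA genes, and 31 had no vehicle count at all. PNLIPRP3, a pancreatic lipase relative, had no vehicle count and 202, 210 and 202 treated counts, which is at least 319-fold higher against 3 counts over the group. SLAMF7, an immune cell surface receptor, had 0, 0 and 2 vehicle counts and 154, 120 and 145 treated counts. ANKRD1, a YAP target, had 0, 0 and 1 vehicle counts and 152, 105 and 158 treated counts. The death gene HRK had 0, 0 and 1 against 217, 141 and 203. The antisense transcript RP11-161I2.1 had no vehicle count and 93, 72 and 106 treated counts.

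In the other direction 129 genes had at most 3 treated counts, 87 of them protein coding, and 51 had none. HENMT1, which methylates small RNAs, had 178, 131 and 112 vehicle counts and none with the compound, at least 90.1-fold lower against 3 counts over the group. CSRP2BP had 320, 236 and 324 vehicle counts and 0, 1 and 1 treated counts. PCDHGA7 had 1793, 4 and 204 vehicle counts, so vehicle replicate 1 alone sets its level, and it shares exons with other protocadherin genes. RP13-582O9.6, with 165, 121 and 100 vehicle counts and none with the compound, shares exons with neighbours too. Intervals and bounds of this kind cover counting error only.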

How the data were processed

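Libraries were made from total RNA of MG63 cells with a stranded kit, per the labels' protocols. The authors deposited raw counts per gene, made with STAR 2.5.2a and featureCounts 1.5.0 of Subread on hg38, per the submitters' processing notes. The annotation release, the strand setting and the treatment of multi-mapping reads were not given in the sources used here. Whole counts of 50868 genes were tested with edgeR 4.0.16 (R 4.3.3, quasi-likelihood, TMM scaling, filterByExpr), fitted on all 12 libraries with 1 mean per group and 8 residual degrees of freedom. The test was two-sided, with Benjamini-Hochberg adjustment over 17717 genes and a threshold of 0.05. DESeq2 1.42.0 and limma 3.58.1 (voom) were alternatives, beside other scalings, filters, thresholds, a replicate block and leaving out each library. The test was also run on simulated counts in which only a small share of genes changed. That run does not cover data in which most genes move, and it cannot decide between the scalings.

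Vehicle libraries held 15556541 to 17492095 counts and treated ones 13393750 to 14885098, so that 3 counts are 0.160 to 0.181 and 0.251 to 0.277 CPM. No 2 libraries of a group agreed within sampling noise, and each counted as a sample. That spread may be technical and does not show that the libraries came from separate cultures.

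The comparison, the 6 marker lists and the 53 pathway lists were chosen with earlier results of these data known. Lists are described by counts and medians, with no set test, and 1302 of their 1303 symbols were found. Named genes are the 10 highest and 10 lowest fold changes and the 8 largest gains and losses in CPM (at least 20 CPM in the higher group, no overlap between groups, no shared exon), up to 4 called members of a list with the smallest p and up to 2 that went the other way, genes on in 1 group only, and markers. A few genes that the rule names are not reported here. Others are marked as named after their values were seen or for a promoter motif. Positions and exon sharing are from GENCODE 29 (GRCh38), matched for 99.4% of tested genes. Promoters are from RefSeq (GRCh38.p14), matched for 67.3% of tested genes, and motifs were searched on both strands of the 250 bases before each start.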

Additional observations from a re-analysis of the deposited data

How the results depend on the processing

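The count of 12926 called genes moved by over 1.5 times under 1 alternative: a test against a 2-fold change called 6018 genes, 2741 higher and 3277 lower. Leaving out each of the 12 libraries in turn gave 12478 to 13148 called genes, 5951 to 6302 higher, 6526 to 6846 lower and 8095 to 8367 over 2-fold. Replicate numbers did not pair the libraries (r = -0.02, -0.04 and -0.01 between deviations of same-numbered libraries), and with the replicate number as a block 12637 genes were called, 6048 higher, 6589 lower and 8060 over 2-fold. Library totals alone gave 13251 called genes but split them into 4292 higher and 8959 lower. DESeq2 called 12732 genes and limma-voom 12813.

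Of 244 named and tested genes 1 changed direction in 5610 gene and setting pairs: KRT18, with library totals alone, at a log2 fold change of -0.14. In 73 pairs the call was lost, 36 of them in the test against a 2-fold change, and KRT8 gained one with library totals alone. BHLHE40, CHI3L1, CXCL16, FANCB, HSP90AB1, KRT18, MDH2, MTHFD2, NEIL1 and RUNX2 lost it in other settings too, CXCL16 at an adjusted p under 0.01 alone. Without treated replicate 1 the log2 fold change of RUNX2 went from 1.96 to 1.13 (edgeR adjusted p = 0.0669). The cause was not tested. A floor of 3 counts, 0.160 to 0.181 CPM with vehicle and 0.251 to 0.277 CPM with the compound, limits what can be said of genes near 0. The comparison covers 1 cell line, 1 dose and 1 time.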

Other observations

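Some further symbol stems are described against the 34.9% called higher and 38.0% called lower over all tested genes. Some of their genes are also in the lists above. A stem is the letters before the first digit of a symbol and can hold unrelated genes. Genes with the stem CD, mostly cell surface molecules numbered by antibody clusters, had 29 rises and 4 falls among 41 tested, with a median log2 fold change of 0.87, or 0.45 with library totals alone. The stem IL, mostly interleukins and their receptors, had 24 rises and 12 falls among 45, with a median of 0.65, or 0.23 with library totals alone. It includes members of the cytokine list, so it is not a separate observation. The stem USP, which covers deubiquitinating enzymes, had 28 rises (56.0%) and 18 falls (36.0%) among 50, with medians of 0.48 and 0.06. Its share of falls is near that over all genes. The stem TRIM, many of whose members are ubiquitin ligases, had 11 rises and 24 falls among 47, with medians of -0.63 and -1.05. The stem VPS, of vacuolar sorting proteins, had 10 rises and 18 falls among 33, with medians of -0.56 and -0.98.

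Promoter letters were also counted for all tested genes with a promoter in the RefSeq table. The AP-1-type motif TGANTCA was found in 6.47% of the 2304 promoters of genes called over 2-fold higher, in 3.35% of the 3106 of genes called over 2-fold lower and in 4.27% of all 11930. The CLEAR core TCACGTGA stood at 2.47%, 1.13% and 1.60% in the same order. The E2F-type motifs stood at 1.87%, 3.38% and 2.89%. These shares describe the letters in 250 bases and were not tested.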
